A study of Homo sapiens with 6 samples.

Results

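The apolipoprotein genes described here were 10 genes taken by symbol from a table of 29153 genes measured in HepG2 cells, namely APOA1, APOA2, APOA4, APOA5, APOB, APOC1, APOC3, APOE, APOH and APOM. All 10 were found, and all 10 passed the filter on low values, a mean of at least 0.5 FPKM (fragments scaled to gene length and to the library's total) over the 6 libraries, which kept 13452 genes. HepG2 is an established human cell line derived from a liver cancer. The study asked how RNA levels change when LINC01977, a long noncoding RNA, is knocked down. The sh-NC group was 3 libraries of HepG2 cells that received a lentivirus carrying a control hairpin. The sh-LINC01977 group was 3 libraries of HepG2 cells that received a lentivirus carrying a hairpin against LINC01977, a single hairpin by the library titles. Both groups were collected after 72 h of lentivirus, and the study's methods describe puromycin selection of infected cells, so every library carries a lentiviral hairpin and none is from uninfected cells. No label says whether the libraries of a group came from separate cultures, so the p-values measure only the spread between these libraries, which may be technical.

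Apolipoproteins are the protein parts of lipoproteins, the particles that carry cholesterol and triglycerides in blood. APOB is the scaffold of the very-low-density lipoprotein that the liver secretes, APOA1 and APOA2 are the main proteins of high-density lipoprotein, and the small exchangeable apolipoproteins move between particles and regulate the enzymes and receptors that act on them. Hepatocytes secrete most of them, and HepG2 cells are widely used to study their secretion.

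The libraries held between 49929024 and 60441515 counts. Of the tested genes, 948 were called higher and 1085 lower in sh-LINC01977 than in sh-NC libraries at an adjusted p under 0.05 (the quasi-likelihood test of edgeR, Benjamini-Hochberg adjusted). Scaled by library totals instead of TMM (the trimmed mean of M-values, edgeR's scaling), the numbers were 1455 and 768. LINC01977 itself had 4, 0 and 16 counts in sh-NC and 0, 0 and 4 counts in sh-LINC01977 libraries. In a fit of all genes its log2 fold change was -2.12 with an SE of 1.96 and an adjusted p of 0.580, so a reduction of the targeted RNA was not detectable at this depth. The paper reports that the knockdown in HepG2 cells was checked by qRT-PCR, a separate measurement.

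Of the 10 apolipoprotein genes, 6 fell, 1 rose and 3 did not pass the test. APOC3, APOH, APOA1, APOA5, APOC1 and APOE were lower in the knockdown libraries, APOA2 was higher, and APOB, APOM and APOA4 were not called. Among all tested genes, 15.1% were called, 7.05% higher and 8.07% lower. The sh-NC and sh-LINC01977 libraries did not overlap for 7 of the 10 genes, the same 7 that were called, against 37.1% of all tested genes. At the thresholds of the study's methods, a change of 2-fold or more with an unadjusted P no higher than 0.05, 1 of the 10 genes passed, APOC3, against 2.60% of all tested genes. The median log2 fold change of the 10 genes was -0.38, and that of all tested genes was -0.0010. Levels below are in CPM, counts scaled to the library's size with TMM, unless FPKM is named. These are bulk libraries, in which fewer cells expressing a gene and less RNA of it per cell cannot be told apart.

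**Figure D1:**
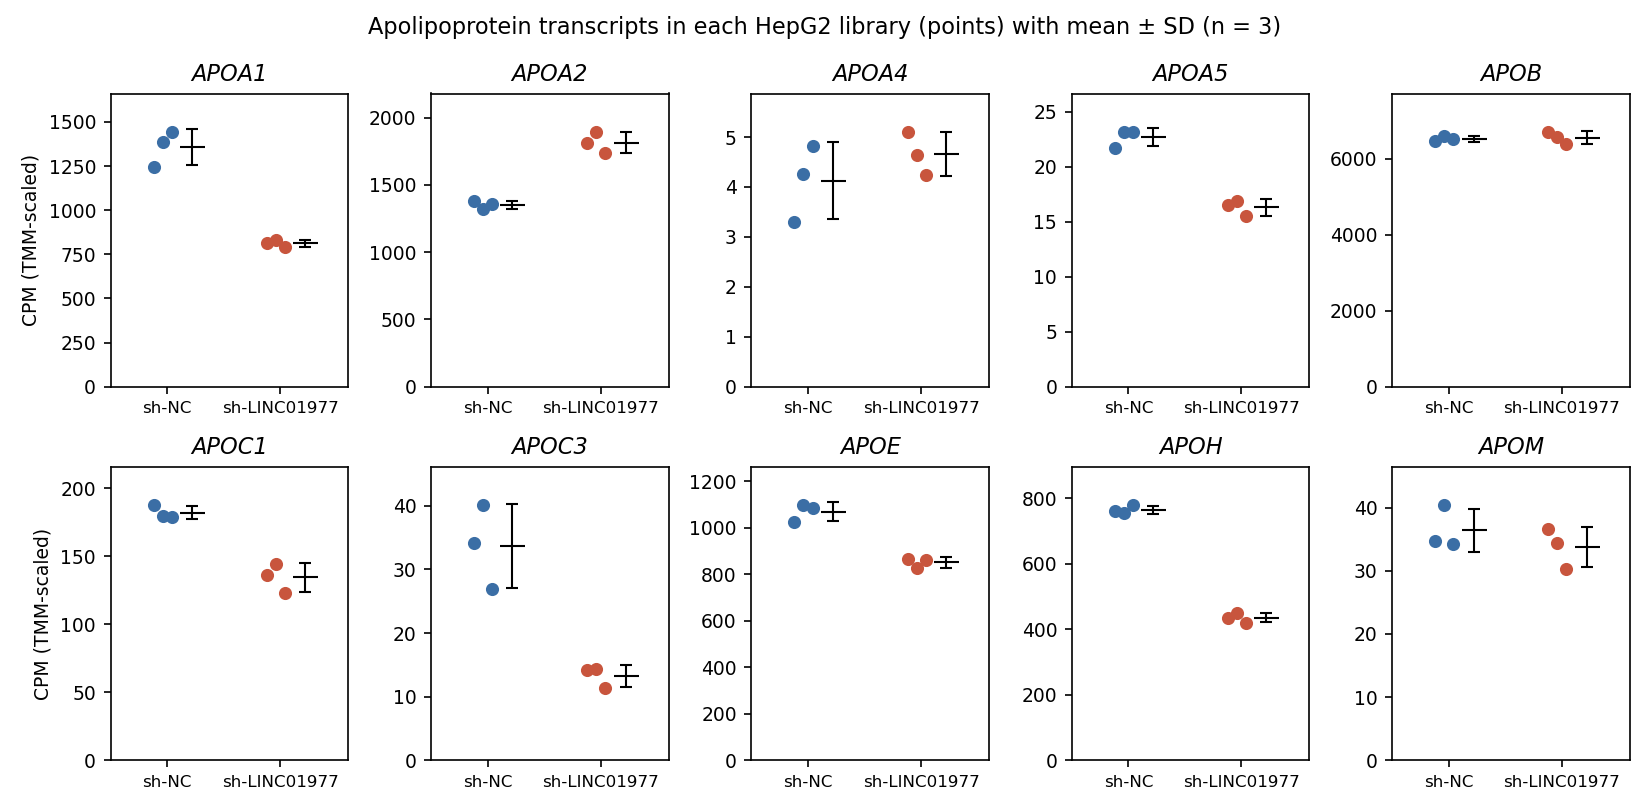
Level of each apolipoprotein gene in each library, in CPM (counts scaled to the library's size with TMM), with a separate linear axis from 0 for each gene. Points are the 3 libraries of each group and the bars beside them are the mean ± SD (n = 3). The groups overlap in the panels of APOA4, APOB and APOM and stand apart in the other 7.

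**Figure D2:**
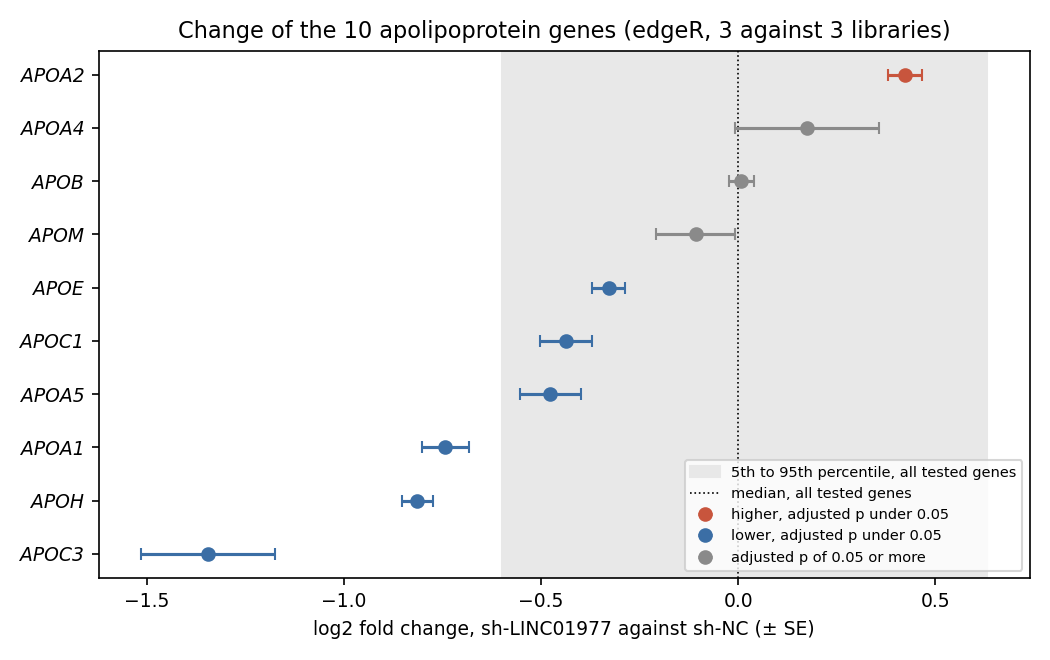
Log2 fold change of each apolipoprotein gene between sh-LINC01977 and sh-NC libraries, with its SE from edgeR. The grey band spans the 5th to the 95th percentile of all tested genes, from -0.60 to 0.63. APOC3, APOH and APOA1 lie below the band, and APOA2 is the only called gene to the right of 0.

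The transcripts of the main structural proteins of high-density lipoprotein moved in opposite directions. APOA1 (ENSG00000118137, chr11:116835751-116837950 in GRCh38, minus strand) encodes the main protein of high-density lipoprotein and the activator of LCAT, the enzyme that esterifies cholesterol on the particle. Its levels were 1247, 1385 and 1445 CPM in the sh-NC libraries and 811, 833 and 791 CPM in the sh-LINC01977 libraries. The highest knockdown library thus lay below the lowest control library. The mean fell from 1359 ± 101 to 812 ± 20.7 CPM (SD, n = 3 each), with a log2 fold change of -0.74 (SE 0.059, adjusted p = 0.00113 from edgeR), so that control cells held 1.67 times the knockdown level. APOA1-AS, which lies partly over APOA1 on the opposite strand, had between 5 and 37 counts in a library, few beside the 40740 to 85038 counts of APOA1.

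APOA2 (ENSG00000158874, chr1:161222292-161223631, minus strand) encodes the other main structural protein of high-density lipoprotein. Its levels were 1378, 1322 and 1357 CPM in the sh-NC libraries and 1813, 1895 and 1734 CPM in the sh-LINC01977 libraries. All 3 knockdown libraries were above all 3 control libraries. The mean rose from 1352 ± 28.4 to 1814 ± 80.3 CPM (SD, n = 3 each), with a log2 fold change of 0.42 (SE 0.043, adjusted p = 0.00193 from edgeR). The ratio of APOA2 to APOA1 counts within a library, which no scaling between libraries can move, was 1.10, 0.955 and 0.939 in sh-NC libraries. It was 2.23, 2.28 and 2.19 in sh-LINC01977 libraries. In the control libraries the 2 transcripts were thus counted about equally, and in each knockdown library APOA2 had more than 2 counts for each count of APOA1.

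APOM (ENSG00000204444, chr6:31652416-31658210, plus strand) encodes a lipocalin of high-density lipoprotein that carries sphingosine-1-phosphate. It had 34.7, 40.4 and 34.2 CPM in sh-NC libraries and 36.6, 34.5 and 30.4 CPM in sh-LINC01977 libraries, so the groups overlapped. Its log2 fold change was -0.11 (SE 0.10, adjusted p = 0.517 from edgeR). APOM overlaps BAG6 on the opposite strand, which had 13539 to 17079 counts in a library and a log2 fold change of -0.030 (adjusted p = 0.749). Whether the counting used strand is not stated, so reads from the shared stretch cannot be assigned to 1 of the genes with certainty.

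APOC3 and APOA5, which act on triglyceride hydrolysis in opposite ways, both fell. APOC3 (ENSG00000110245, chr11:116829706-116833072, plus strand) encodes an inhibitor of lipoprotein lipase and of the uptake of triglyceride-rich remnants. Its levels were 34.2, 40.1 and 26.9 CPM in sh-NC libraries and 14.1, 14.4 and 11.3 CPM in sh-LINC01977 libraries. The control libraries were spread more widely than those of APOA1 or APOA2, with a coefficient of variation of 19.5%, and still lay wholly above the knockdown libraries. The mean fell from 33.7 ± 6.59 to 13.3 ± 1.72 CPM (SD, n = 3 each), with a log2 fold change of -1.35 (SE 0.17, adjusted p = 0.00416 from edgeR). Only 1.61% of all tested genes had a log2 fold change of larger size.

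APOA5 (ENSG00000110243, chr11:116789367-116792420, minus strand) encodes a scarce plasma protein that promotes hydrolysis by lipoprotein lipase. It had 21.7, 23.1 and 23.2 CPM in sh-NC libraries and 16.5, 16.9 and 15.5 CPM in sh-LINC01977 libraries. The mean fell from 22.7 ± 0.82 to 16.3 ± 0.74 CPM (SD, n = 3 each), and the groups did not overlap. The log2 fold change was -0.48 (SE 0.077, adjusted p = 0.00962 from edgeR). The lipase itself, LPL, was below the filter, with a mean of 0.020 FPKM in sh-LINC01977 libraries and a value of 0 in every sh-NC library.

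APOE and APOC1, neighbours on chromosome 19, fell by similar amounts. APOE (ENSG00000130203, chr19:44905754-44909393, plus strand) encodes a protein through which cells take up lipoprotein remnants. Its levels were 1024, 1097 and 1088 CPM in sh-NC libraries and 868, 826 and 863 CPM in sh-LINC01977 libraries, without overlap. Its log2 fold change was -0.33 (SE 0.042, adjusted p = 0.00440 from edgeR), and 27.7% of all tested genes changed by more. APOC1 (ENSG00000130208, chr19:44914247-44919349, plus strand) encodes a small protein that inhibits the cholesteryl ester transfer protein. It had 187.5, 180 and 179 CPM in sh-NC libraries and 136, 144 and 123 CPM in sh-LINC01977 libraries, again without overlap. Its log2 fold change was -0.44 (SE 0.066, adjusted p = 0.00779 from edgeR). Within a library, APOC1 had 0.183, 0.164 and 0.165 counts for each count of APOE with sh-NC, against 0.157, 0.175 and 0.143 with sh-LINC01977, and these ratios overlapped between the groups.

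APOH (ENSG00000091583, chr17:66212033-66256525, minus strand) encodes beta-2-glycoprotein I, a plasma protein that binds anionic phospholipids. Its levels were 760, 754 and 778 CPM in sh-NC libraries and 435, 449 and 420 CPM in sh-LINC01977 libraries. Within either group the libraries lay close together, with coefficients of variation of 1.63% and 3.32%, and the gap between the groups was far wider than that spread. The mean fell from 764 ± 12.4 to 435 ± 14.4 CPM (SD, n = 3 each), with a log2 fold change of -0.81 (SE 0.039). Its adjusted p of 3.47e-04 from edgeR was the lowest of the 10 genes.

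APOB (ENSG00000084674, chr2:21001429-21044073, minus strand), the scaffold of very-low-density and low-density lipoprotein, was the most counted of the 10 genes and moved least. It had 6459, 6597 and 6519 CPM in sh-NC libraries and 6713, 6574 and 6388 CPM in sh-LINC01977 libraries. The highest and the lowest of the 6 values were both knockdown libraries. The log2 fold change was 0.0074 (SE 0.032, adjusted p = 0.902 from edgeR), and 97.4% of all tested genes had a larger one in either direction. It was also the most precisely measured member, with between 325525 and 400108 counts in a library.

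APOA4 (ENSG00000110244, chr11:116820700-116823306, minus strand) encodes an apolipoprotein made mainly by the intestine, and it was the scarcest of the 10 genes here. It had 3.31, 4.26 and 4.82 CPM in sh-NC libraries and 5.11, 4.63 and 4.23 CPM in sh-LINC01977 libraries, from 180 to 284 counts. The groups overlapped, and the log2 fold change of 0.17 (SE 0.18, adjusted p = 0.568 from edgeR) was smaller than its SE.

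The total of the 10 genes was lower in the knockdown libraries with TMM scaling. Their CPM summed to 11150, 11443 and 11454 with sh-NC and to 10848, 10792 and 10382 with sh-LINC01977, without overlap. As shares of the unscaled library totals, the 10 genes took 1.07% to 1.13% of all counts in sh-NC and 1.07% to 1.10% in sh-LINC01977 libraries, ranges that overlap, so the separation of the totals depended on the scaling. How these counts were divided among the genes does not depend on it. APOB took 56.9% to 57.9% of them in sh-NC and 60.9% to 61.9% in sh-LINC01977 libraries, although its own level was not called different. APOA2 took 11.6% to 12.4% in sh-NC and 16.7% to 17.6% in sh-LINC01977 libraries. The share of APOA1 was 11.2% to 12.6% in sh-NC and 7.48% to 7.72% in sh-LINC01977 libraries, and that of APOH was 6.59% to 6.82% and 4.01% to 4.16%. Relative to APOB, the transcript of the particle scaffold, APOE had 0.159, 0.166 and 0.167 counts for each APOB count with sh-NC, against 0.129, 0.126 and 0.135 with sh-LINC01977.

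**Figure D3:**
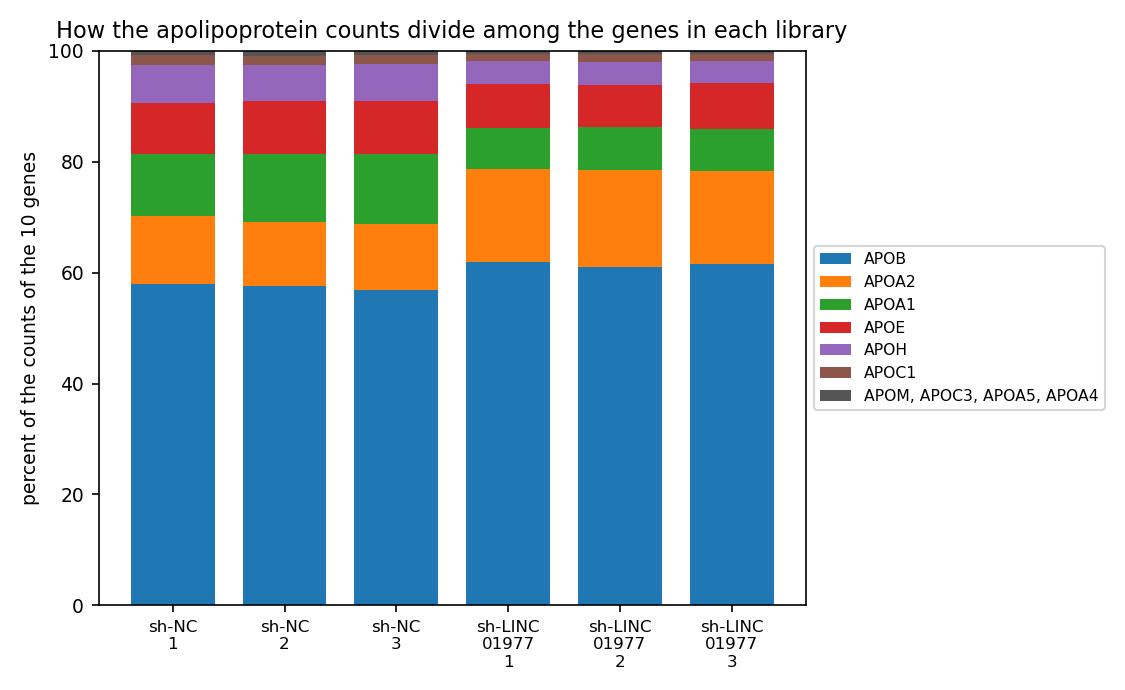
Percent of the counts of the 10 apolipoprotein genes that each gene took, 1 bar per library. The APOB and APOA2 segments are taller in all 3 sh-LINC01977 bars than in the sh-NC bars, and those of APOA1, APOE and APOH are shorter. APOM, APOC3, APOA5 and APOA4 are drawn as 1 segment.

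Per length, APOA2 was the most abundant of the 10 transcripts in both groups. On the FPKM scale, its level was 1136 ± 17.6 in sh-NC and 1593 ± 47.4 in sh-LINC01977 libraries (SD, n = 3 each), above 99.8% of all tested genes by its mean over the 6 libraries. In sh-NC libraries it was followed by APOA1 (758 FPKM), APOH (456), APOE (388), APOB (350), APOC1 (117), APOC3 (30.9), APOM (17.4), APOA5 (9.29) and APOA4 (2.22). In sh-LINC01977 libraries the FPKM order was APOA2, APOA1 (473 FPKM), APOB (367), APOE (323), APOH (271), APOC1 (90.7), APOM (16.9), APOC3 (12.7), APOA5 (6.97) and APOA4 (2.62). No pair of neighbours in either order overlapped between its libraries. Between the groups, APOH went from the third to the fifth place, APOB from the fifth to the third, and APOC3 and APOM exchanged places. The order near the top depended on the gene length used. FPKM divided each count by a length in proportion to the union of all annotated exons, and this union was 1.81 times the longest transcript for APOE and 1.02 times for APOA2. Per kilobase of the longest transcript, APOE in sh-NC libraries (886 CPM per kilobase) stood above APOH (650), and APOE in sh-LINC01977 libraries (705) stood above APOA1 (662).

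The genes fall into 2 clusters and 4 single loci. APOA5, APOA4, APOC3 and APOA1 lie within 48.6 kb on chromosome 11, and 3 of the 4 fell while APOA4, between APOA5 and APOC3, was not called. Next to them, ZPR1 had a log2 fold change of -0.29 (adjusted p = 0.0313 from edgeR), a call that was lost in 10 of 15 alternative settings. BUD13 had a log2 fold change of 0.038 (adjusted p = 0.788) and SIK3 of -0.24 (adjusted p = 0.0675), so neither passed. APOA1 and APOC3, the pair with the largest changes here, are transcribed in opposite directions with their 3′ ends 2.68 kb apart. On chromosome 19, APOE and APOC1 fell, while TOMM40 (-0.19, adjusted p = 0.107), NECTIN2 (-0.17, adjusted p = 0.119) and CLPTM1 (-0.14, adjusted p = 0.184) did not pass. The last apolipoprotein gene of that cluster, APOC2, which encodes the activator of lipoprotein lipase, shares its exons with the read-through gene APOC4-APOC2. Their log2 fold changes were 0.12 (adjusted p = 0.705) and -0.48 (adjusted p = 0.187), and how the counting divided shared reads is uncertain. Summed, both had 175 ± 9.43 CPM in sh-NC and 157 ± 6.49 CPM in sh-LINC01977 libraries (SD, n = 3 each). Over the listed neighbours of both clusters, 0 of 16 tested genes were called higher by edgeR and 2 lower, ZPR1 and TAGLN (-0.48, adjusted p = 0.0161). That was 12.5% called, against 15.1% of all tested genes. At an unadjusted p under 0.05, 1 neighbour was higher and 7 were lower, and 0 were called higher by DESeq2 or limma. The median log2 fold change of the tested neighbours was -0.18. The groups did not overlap for 9 of the 16, against 37.1% of all tested genes. The number called lower ranged from 0 to 4 over the alternatives.

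**Figure D4:**
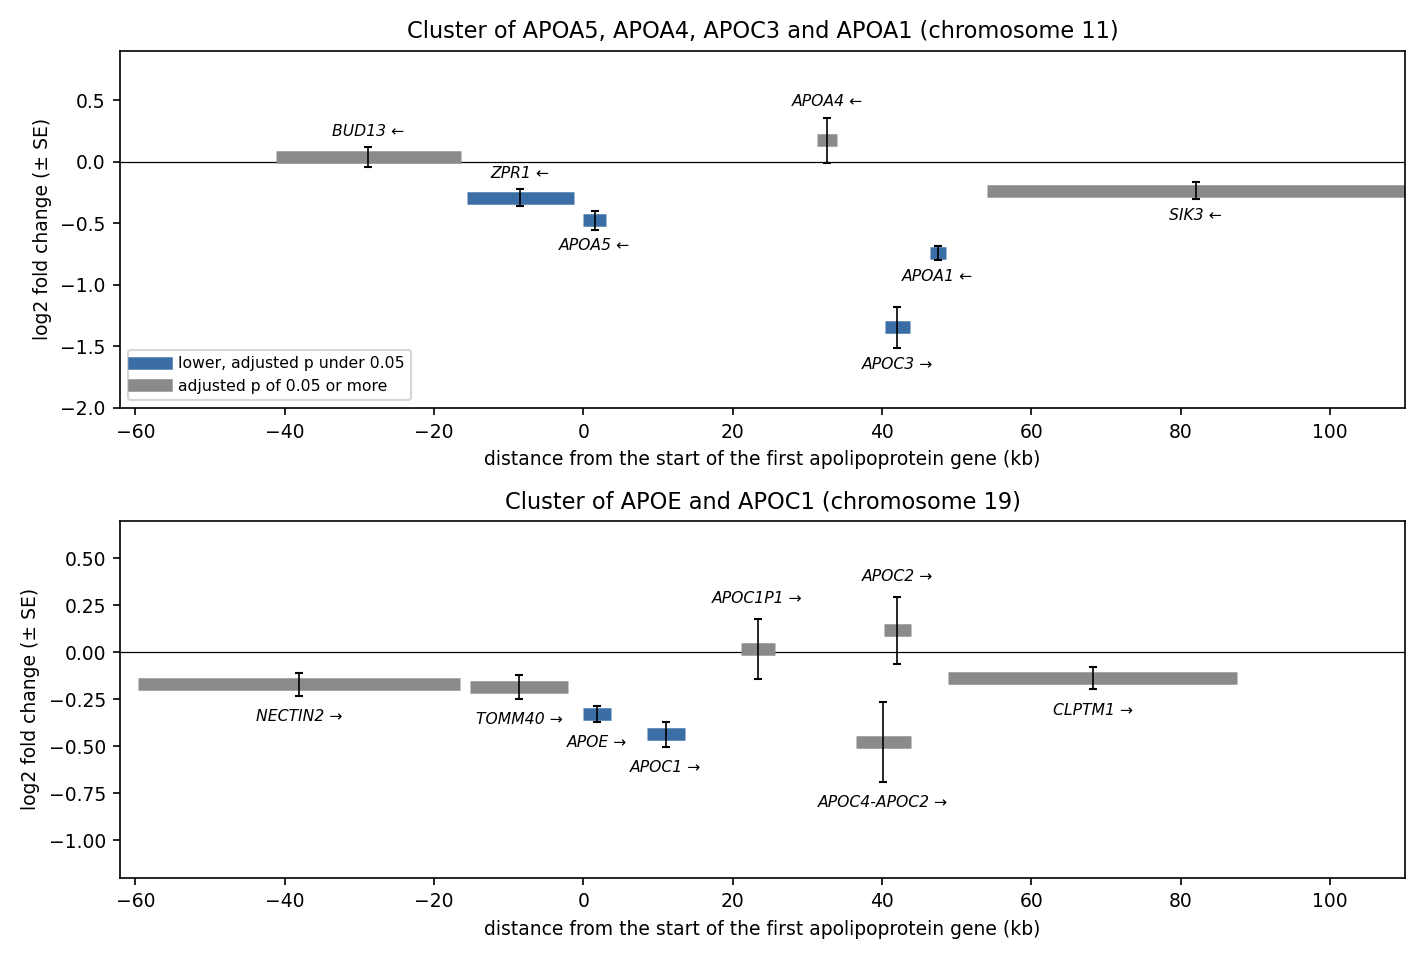
Log2 fold change (± SE) of the tested genes along the clusters on chromosomes 11 and 19, against the distance in kb from the start of the first apolipoprotein gene. Bars span the genes, arrows give the strand, and SIK3 runs past the right edge. The called genes are APOA5, APOC3, APOA1 and ZPR1 in the upper panel and APOE and APOC1 in the lower panel.

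Sequence windows at the gene starts, 300 bases from 250 before to 50 after each annotated start, were found for 7 of the 10 genes in RefSeq (GRCh38.p14). They were searched on both strands for AGGTCA (a nuclear receptor core), TGTTTAC (the forkhead core), CACGTG (the E-box that USF proteins bind) and CAAAGT (part of the HNF4 motif), and on the coding strand for TATAAA. Among all 35116 windows of this length, 13.8% held AGGTCA, 3.42% TGTTTAC, 7.26% CACGTG, 11.9% CAAAGT and 7.33% TATAAA. The windows of 3 genes with calls are shown because they hold such letters, in capitals, and the gene that rose can be set beside genes that fell. They run 5′ to 3′ on the minus strand, on which all 3 genes lie, at chr1:161223579-161223878 for APOA2, chr11:116792371-116792670 for APOA5 and chr17:66229366-66229665 for APOH. The APOH start lies inside the longer interval that the table gives for the gene.
APOA2: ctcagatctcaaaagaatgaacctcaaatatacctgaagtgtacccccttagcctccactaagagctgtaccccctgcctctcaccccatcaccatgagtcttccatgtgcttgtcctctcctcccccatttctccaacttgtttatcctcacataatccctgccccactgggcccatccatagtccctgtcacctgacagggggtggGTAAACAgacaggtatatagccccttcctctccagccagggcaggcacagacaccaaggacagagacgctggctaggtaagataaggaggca
APOA5: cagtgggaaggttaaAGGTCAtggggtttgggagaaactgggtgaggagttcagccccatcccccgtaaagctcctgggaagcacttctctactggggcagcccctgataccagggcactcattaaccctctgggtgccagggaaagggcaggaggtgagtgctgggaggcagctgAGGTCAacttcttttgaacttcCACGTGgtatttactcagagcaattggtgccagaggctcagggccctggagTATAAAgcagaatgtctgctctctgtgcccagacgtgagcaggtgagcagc
APOH: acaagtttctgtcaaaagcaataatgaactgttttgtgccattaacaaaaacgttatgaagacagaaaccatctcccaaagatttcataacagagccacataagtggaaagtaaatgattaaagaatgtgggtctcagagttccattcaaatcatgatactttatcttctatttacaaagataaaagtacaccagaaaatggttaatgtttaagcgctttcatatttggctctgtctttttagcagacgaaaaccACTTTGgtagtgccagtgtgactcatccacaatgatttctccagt

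In the window of APOA2, which rose, the reverse complement of the forkhead core stood 42 bases before the start. In that of APOA5, which fell, the nuclear receptor core stood 235 and 74 bases before the start, with the E-box at 52 bases before it and TATAAA from 1 base before it. In that of APOH, which fell, the reverse complement of CAAAGT began at base 6, the start being base 1. No 2 of these matches overlapped. A second APOA5 window held 1 nuclear receptor core, and the windows of APOA4, APOC1, APOE and APOM held none of the motifs. A match of letters is a description and no measured binding site.

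Of the listed transcription regulators of apolipoprotein genes, 15 of 29 tested fell and 1 rose, against 15.1% of all tested genes called in either direction, and the median log2 fold change of the list was -0.26. HNF4A, the nuclear receptor that activates many apolipoprotein promoters in liver, had 67.0, 75.7 and 62.3 CPM in sh-NC libraries and 46.1, 48.1 and 45.4 CPM in sh-LINC01977 libraries. It did not overlap between groups, and its log2 fold change was -0.55 (SE 0.082, adjusted p = 0.00715 from edgeR). NR1H4, the bile acid receptor, fell from 101 ± 6.55 to 37.3 ± 4.61 CPM (SD, n = 3 each), with a log2 fold change of -1.43 (adjusted p = 8.71e-04). ONECUT1 (-1.58, adjusted p = 0.00409), a hepatocyte transcription factor, and PPARGC1A (-1.02, adjusted p = 0.00287), a coactivator of HNF4A, also fell. MLXIPL, the carbohydrate response factor, had a log2 fold change of -0.80 (adjusted p = 0.0166), which rose above 0.05 without sh-NC library 1, sh-NC library 2 or sh-LINC01977 library 1, to at most 0.0558. The other genes of the list that fell were NR0B2, NR2F1, RXRA, CEBPB, NR2F6, FOXA1, USF2, NR2F2, SREBF2 and CEBPA, by log2 fold changes from -0.69 to -0.22. PPARD rose by 0.50 (adjusted p = 0.00829). PPARA had 24.9, 37.5 and 9.73 CPM in sh-NC libraries and 6.61, 17.9 and 42.4 CPM in sh-LINC01977 libraries, so its level varied more within than between the groups. The number of regulators called lower ranged from 9 to 16 over the alternatives. Whether these changes have a part in those of the apolipoprotein genes was not tested.

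Defining markers of hepatocytes and HepG2 cells were detected in every library, with ALB at 694 to 1515 FPKM and AFP at 974 to 1328 FPKM, HP at 2.30 to 5.94 FPKM and TTR at 9.21 to 12.2 FPKM. Of 13 such markers, 10 fell and 0 rose by edgeR, against 15.1% of all tested genes called in either direction. At an unadjusted p under 0.05, 0 rose, and 0 rose by DESeq2 or limma. The median log2 fold change of these markers was -0.65, and the number called lower was 9 or 10 over the alternatives. Their FPKM values summed to between 4299 and 4577 in sh-NC and between 3106 and 3150 in sh-LINC01977 libraries. ALB, albumin, fell by 1.09 on the log2 scale (adjusted p = 1.75e-04 from edgeR), and AFP, alpha-fetoprotein, by 0.41 (adjusted p = 0.00169). FGB (-1.10), FGG (-0.99) and HP (-0.95), which encode fibrinogen chains and haptoglobin, fell too (adjusted p = 6.92e-04, 6.92e-04 and 0.0147), HP losing its call without sh-LINC01977 library 1 (adjusted p = 0.0524).

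Of the mesenchymal markers, 7 of 10 were in the table and 3 were tested. PDGFRB rose from 0.567 to 1.64 FPKM (log2 fold change 1.47, adjusted p = 0.00620). COL1A1 had 2.62, 3.37 and 2.16 FPKM in sh-NC libraries and 5.65, 4.52 and 3.98 FPKM in sh-LINC01977 libraries, without overlap (log2 fold change 0.73, adjusted p = 0.0504), and ACTA2 had a log2 fold change of -0.076 (adjusted p = 0.569). The number of mesenchymal markers called higher was 2 in 7 of 15 alternatives. VIM, below the filter, was at 0.18 and 0.061 FPKM, and the list summed to between 20.1 and 20.3 FPKM in sh-NC and between 20.8 and 25.9 FPKM in sh-LINC01977 libraries. No endothelial marker passed the filter, and the 4 in the table summed to at most 0.441 FPKM in any library. Of the blood markers, 5 were listed in the table, of which 3 were tested, and CD79A rose from 0.685 to 2.09 FPKM (log2 fold change 1.53, adjusted p = 0.00801). CD68, which made up most of the list's sum, had 9.23, 12.5 and 9.59 FPKM in sh-NC libraries and 15.7, 13.5 and 15.3 FPKM in sh-LINC01977 libraries, without overlap (log2 fold change 0.44, adjusted p = 0.0627). The number of blood markers called higher was 2 in 5 of 15 alternatives. CD14 had a log2 fold change of -0.40 (adjusted p = 0.409). PTPRC and HBB were at 0 in every sh-LINC01977 library and had at most 4 counts in any sh-NC library. The blood list summed to between 11.2 and 14.0 FPKM in sh-NC and between 16.0 and 18.7 FPKM in sh-LINC01977 libraries. The part of these marker changes in those of the apolipoprotein genes was not tested.

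Among 9 other apolipoprotein genes that passed the filter, 2 fell and 0 rose by edgeR, 22.2% called against 15.1% of all tested genes. At an unadjusted p under 0.05, 1 rose, which was APOF, and 1 rose by DESeq2 and 0 by limma. SAA4, the constitutive serum amyloid A of high-density lipoprotein, had 70.5, 81.9 and 98.5 CPM in sh-NC libraries and 18.8, 22.1 and 23.7 CPM in sh-LINC01977 libraries. Its log2 fold change of -1.96 (SE 0.15, adjusted p = 9.86e-04 from edgeR) was larger in size than that of any of the 10 genes. APOO, a mitochondrial protein despite its name, had a log2 fold change of -0.38 (adjusted p = 0.0446), and this call was lost in 11 of 15 alternatives. CLU, apolipoprotein J, had a log2 fold change of -0.33 (SE 0.15, adjusted p = 0.197).

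Of 19 tested genes of lipoprotein assembly and secretion, 2 fell and 2 rose, 21.1% called against 15.1% of all tested genes. The median log2 fold change of the 19 genes was 0.0027. MTTP, the transfer protein that loads lipid onto APOB, had 12.7, 12.9 and 14.3 CPM in sh-NC libraries and 7.76, 6.98 and 8.51 CPM in sh-LINC01977 libraries. The groups did not overlap, and MTTP fell by 0.78 on the log2 scale (SE 0.11, adjusted p = 0.00705 from edgeR) while APOB itself was not called. CIDEB, which takes part in lipidation of very-low-density lipoprotein, fell from 18.7 ± 1.50 to 8.47 ± 0.824 CPM (SD, n = 3 each; adjusted p = 0.00188). VMP1 rose by 0.34 (adjusted p = 0.00609). SORT1, a sorting receptor that binds APOB, had a log2 fold change of 0.25 (adjusted p = 0.0306), a call lost in 8 of 15 alternatives.

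Of 9 tested genes of lipoprotein remodelling, 2 rose, against 7.05% of all tested genes called higher. PON3, a lactonase carried on high-density lipoprotein, rose by 0.59 (adjusted p = 0.00428) and FURIN, a proprotein convertase, by 0.45 (adjusted p = 0.00359). LCAT, whose activator is APOA1, had a log2 fold change of -0.40 (adjusted p = 0.0791), and LIPC, hepatic lipase, of 0.18 (adjusted p = 0.336).

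Of 14 tested receptors and uptake genes, 2 fell, against 8.07% of all tested genes called lower. SCARB1, the receptor of high-density lipoprotein, fell by 0.34 (adjusted p = 0.00769), and AMN, a partner of the endocytic receptor cubilin, fell by 0.92 (adjusted p = 0.00211). Of 7 tested genes of cholesterol efflux, 1 fell and 0 rose by edgeR, 14.3% called against 15.1% of all tested genes. At an unadjusted p under 0.05, 0 were higher and 3 lower, and 0 rose by DESeq2 or limma. The gene called lower was NPC2, a lysosomal cholesterol carrier (-0.66, adjusted p = 0.00842). ABCA1, which hands cholesterol to APOA1, had a log2 fold change of -0.16 (SE 0.050, adjusted p = 0.0867).

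**Figure D5:**
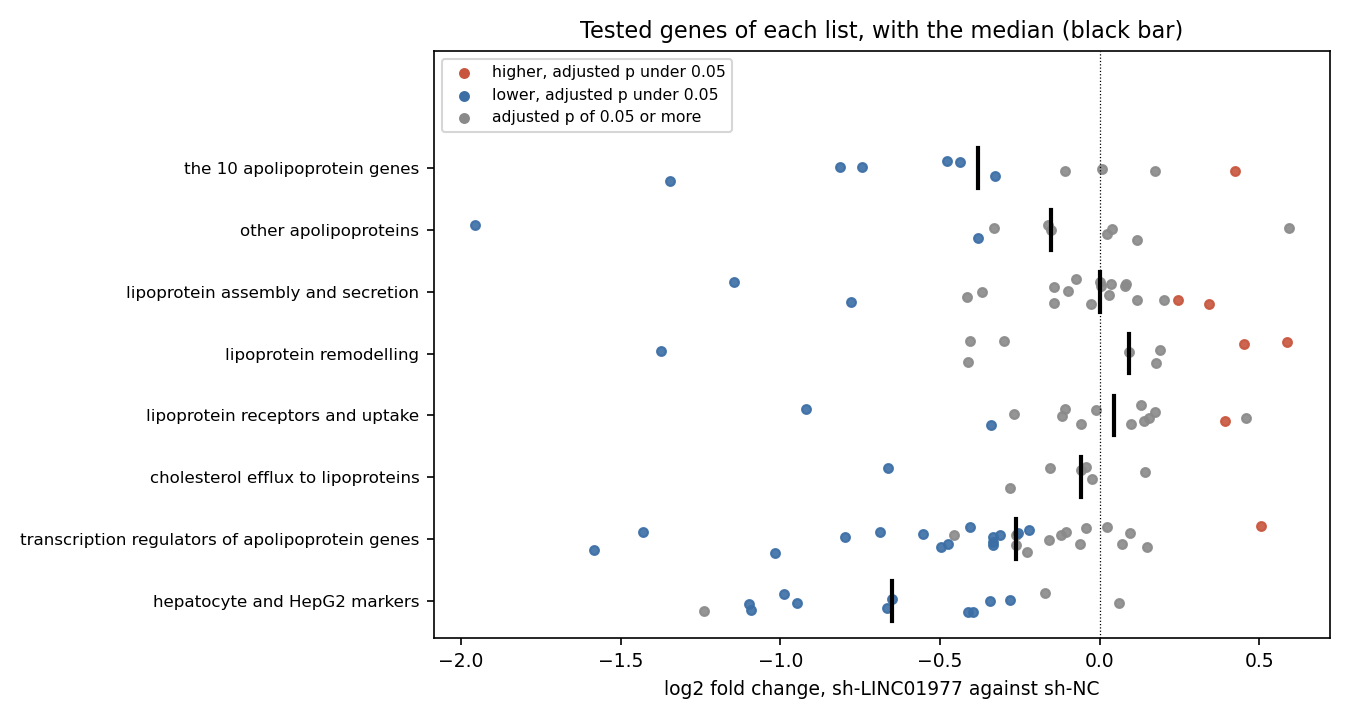
Log2 fold change of every tested gene in the apolipoprotein list and in 7 other lists, with the median of each list as a black bar and vertical scatter added for legibility. The median lies at -0.38 for the 10 apolipoprotein genes, -0.65 for the hepatocyte markers and -0.26 for the transcription regulators, and near 0 for the lists of assembly, remodelling, receptors and efflux.

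Across the 6 libraries, the genes whose log2 CPM most closely followed that of single apolipoprotein genes were, among 3451 or 3452 genes with a mean of at least 10 FPKM, DGUOK for APOA1 (Pearson's r of 0.997) and FAF2 for APOA2 (0.997). They were SLC31A1 for APOA5 (0.999), PDZD11 for APOC3 (0.998), HSD3B7, an enzyme of bile acid synthesis, for APOE (0.998) and AC134669.1 for APOC1 (0.993). For the genes that were not called they were HSD17B11 for APOB (0.963), STC2 for APOM (0.991) and CSTF2 for APOA4 (0.986). These values are given as a description over 6 libraries in 2 groups. An r over 0.95 was reached by 134 to 301 genes for each of the 7 called genes, and by 2 to 5 genes for each of the other 3. The difference between the groups enters these correlations, so this contrast largely restates the calls.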

How the data were processed

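RNA of 6 HepG2 libraries (3 sh-NC, 3 sh-LINC01977, grouped by their labels) was sequenced, and 1 table was deposited. The deposited counts are unnormalized whole numbers per gene, with totals from 49929024 to 60441515 per library. A large count limits counting error only, and not the further differences between replicate libraries given below. The deposited FPKM values are counts divided by exon length and by a library total. The submitters' processing notes name bcl2fastq 2.0, HISAT2, StringTie, DESeq2, limma and the build hg38. Whether the counting used strand is not given in the sources used here. Gene coordinates were the same in GENCODE 29 for all 10 members.

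The 10 genes, the gene lists and the motifs were chosen with earlier results of these data known. The quasi-likelihood test of edgeR 4.0.16 in R 4.3.3 was run on the counts after TMM scaling, with p-values adjusted by Benjamini-Hochberg over all tested genes, for genes with a mean of at least 0.5 FPKM, after a check on simulated data. CPM are counts scaled to the TMM-adjusted library size, ± SD over 3 libraries. Alternatives were other scalings, filters of none and of 1 FPKM, DESeq2 1.42.0, limma 3.58.1 on log2 of the deposited FPKM plus 0.1 or 1, a replicate block, and each library left out. Named genes were all 10 members, up to 4 called genes per list with the largest fold changes, some genes fixed by role, the most correlated gene of each member, and LINC01977; the other regulators and cluster neighbours, LPL, APOF, TTR, COL1A1, ACTA2, VIM, CD68, CD14, PTPRC, HBB and genes overlapping a member were named after their values were seen. Replicate libraries differed by more than sampling noise (chi-square per degree of freedom 33.9 to 41.8), so each was counted as 1 sample. Results on some genes of these lists are not reported here.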

Additional observations from a re-analysis of the deposited data

How the results depend on the processing

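All 10 apolipoprotein genes kept their side of the threshold (adjusted p of 0.05) under all 15 alternatives, with 6 genes lower, 1 higher and APOC3 past the study's thresholds each time, and the 7 called genes kept their direction. APOB, not called, turned to -0.0053 without a filter and ranged from -0.0079 to 0.027 with 1 library left out. PPARA ranged from -0.96 to 0.37 with 1 library left out, its sign turning without sh-NC library 2 (0.37), sh-LINC01977 library 1 (0.33) or library 2 (0.030). LCAT was called with DESeq2 (adjusted p = 0.0271), and TAGLN lost its call in 5 alternatives. Over all tested genes, 1455 were higher and 768 lower with library totals, which moved the median log2 fold change from -0.0010 to 0.065, 1269 and 729 with limma, and 1360 and 1485 with DESeq2. Past the study's thresholds were 350 genes, 1083 without a filter, 225 at 1 FPKM and 100 with limma on log2(FPKM + 1). With 1 library left out, 549 to 669 genes were higher and 627 to 738 lower, the fewest without sh-LINC01977 library 2. With a replicate block, 636 genes were higher and 754 lower. Correlations of deviations between libraries of the same number were -0.034, 0.0051 and 0.061, and not every library correlated best with its own number. These values gave no clear sign that the numbers pair the libraries, but with so few libraries they cannot exclude it. The causes were not tested. LINC01977 had from 0 to 16 counts in a library, and APOA4 was the least counted of the 10 genes, with 180 to 284 counts. Whether depth set the spread of APOA4 was not tested.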
